A study of Rattus norvegicus with 6 samples.

Results

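The genes described here are the cyclins, kinases and inhibitors that control passage through G1, the phase between division and DNA synthesis. They are the D-type cyclins Ccnd1, Ccnd2 and Ccnd3, the E-type cyclins Ccne1 and Ccne2, the kinases Cdk2, Cdk4 and Cdk6, and the inhibitors Cdkn1b (p27) and Cdkn1c (p57). The 10 genes were taken from the count table by gene symbol, together with the rows of unannotated transcripts that overlap one of them on the same strand. There were 6 such unannotated rows, giving 16 of the 43035 features in the table. RNA-seq was performed on primary cultures of neonatal cardiomyocytes from Sprague-Dawley rats at postnatal day 1. Cells received scramble siRNA (si-NC, n = 3 libraries) or siRNA against Dyrk1a (si-DYRK1A, n = 3 libraries) and were collected after 48 h. Dyrk1a encodes a protein kinase that phosphorylates cyclin D and p27 in other cell types, and the comparison asks how the mRNAs of these regulators differed after the siRNA.

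D-type cyclins bind Cdk4 and Cdk6 in response to growth signals, and these complexes phosphorylate the retinoblastoma protein, which releases E2F transcription factors. E-type cyclins then activate Cdk2 at the onset of DNA synthesis. The Cip/Kip inhibitors p27 and p57 bind cyclin and kinase together and restrain Cdk2. Cardiomyocytes of the newborn heart still cycle, and most leave the cycle soon after birth. Much of the control over cyclin D and p27 acts on the stability of the proteins, which mRNA counts do not measure.

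The libraries held 10325074 to 11921772 counts. The annotated Dyrk1a row held 0 to 3 counts in every library, and the unannotated row covering it was at 77.7 ± 3.22 CPM (counts scaled to library size; SD, n = 3) in si-NC and 82.4 ± 2.70 in the libraries labelled si-DYRK1A (log2 fold change 0.08, SE 0.0575, adjusted p = 0.374 in edgeR). The targeted mRNA was therefore not measured as lower in these libraries, and directions below refer to their labels. Across all genes, 15513 features passed the filter on low counts and 2360 of them passed an adjusted p of 0.05, which is 15.2% of those tested. Of the features tested, 8.03% were called higher and 7.19% lower in si-DYRK1A, and the CPM values of the groups did not overlap for 31.5%.

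Of the 10 genes, 6 had a row that could be tested. These were the annotated rows of Ccnd2, Ccnd3, Cdk2 and Cdk4 and the unannotated rows over Cdk6 and Cdkn1b. The unannotated row over Cdkn1b rose in si-DYRK1A, and none of the 6 rows was called lower, against 2 that were lower at an unadjusted p under 0.05. DESeq2 called 0 of the 6 rows in either direction, and limma-voom called 1 higher and 0 lower. The groups did not overlap for 4 of the 6 rows, and for 31.5% of all tested features. Of these 4 rows, only that over Cdkn1b passed the test. The median size of the log2 fold change, regardless of sign, was 0.11 over the 6 rows and 0.18 over all tested features. In bulk RNA, fewer cells of a type and less RNA per cell cannot be told apart.

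Where the counts of each gene lay in the table had to be settled first. The annotated rows of Ccnd1, Ccne1, Cdk6, Cdkn1b and Cdkn1c held 0 counts in all 6 libraries, and that of Ccne2 held 4 in total. An unannotated row on the same strand covers at least 99.45% of the span of each of these 6 genes and no other annotated gene of that strand, whereas Ccnd2, Ccnd3, Cdk2 and Cdk4 have no such row and hold all of their counts on the annotated one. The unannotated row over Cdk6 carried 11788 counts in all and that over Cdkn1b carried 1144, while those over Ccne1, Ccne2 and Ccnd1 carried 48, 22 and 7. The unannotated row over Cdkn1c carried 0.

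**Figure D1:**
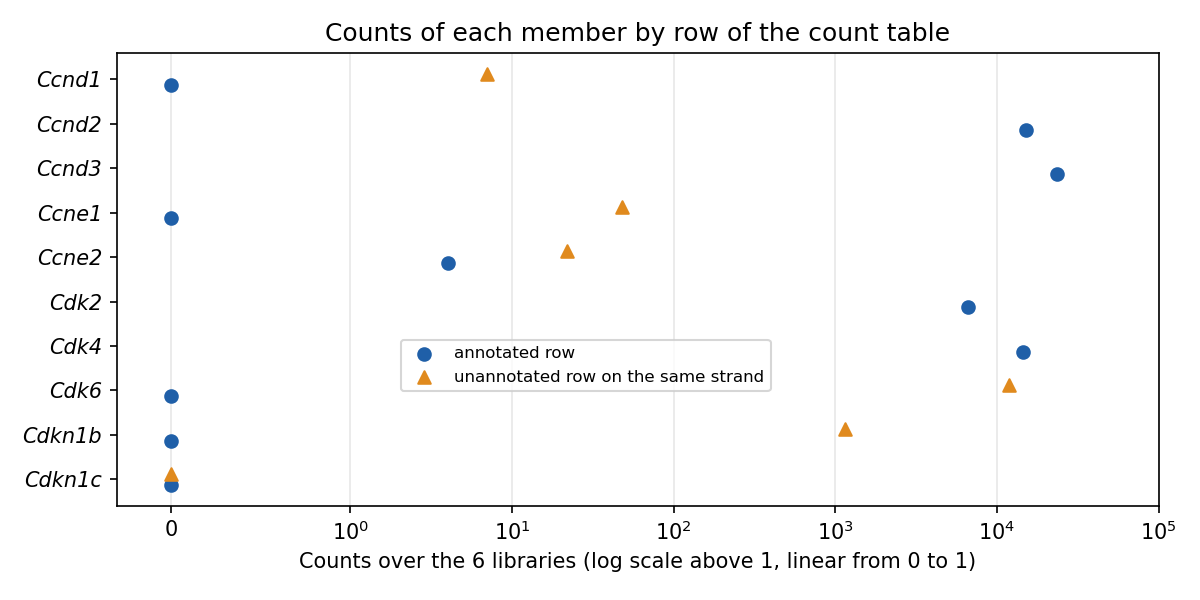
Total counts over the 6 libraries (x axis, logarithmic above 1) for each gene (y axis), with circles for annotated rows and triangles for unannotated rows on the same strand. Ccnd2, Ccnd3, Cdk2 and Cdk4 are counted on annotated rows, Cdk6 and Cdkn1b on unannotated rows, and the other 4 genes hold at most 48 counts on any row.

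The unannotated rows differ in how much longer they are than the annotated gene model. The listed length of the Cdk6 unannotated row exceeds that of the annotated row by 11398 bases and that of the Cdkn1b unannotated row by 571 bases. The Ccne1 and Ccne2 unannotated rows are longer by 909 and 464 bases. For Ccnd1 the unannotated row is 1 base shorter than the annotated row (3875 against 3876 bases), and for Cdkn1c it is shorter by 137 bases (1905 against 2042). The order of these extra lengths is not the order of the counts, since the Ccne1 row is longer by more than the Cdkn1b row and holds fewer counts.

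Over the whole table, the share of pairs with low counts on both rows fell with the extra length. This was read among 5352 pairs of a protein-coding gene and an unannotated row covering at least 50% of it. Where the unannotated row was at most 100 bases longer, both rows stayed under 10 counts in every library in 55.7% of 1748 pairs. The share was 30.3% of 1571 pairs for more than 100 and up to 1000 extra bases and 3.54% of 2033 pairs for over 1000. The annotated row alone stayed under 10 counts in every library in 62.3%, 86.3% and 85.8% of these classes, in the same order. For 14871 protein-coding genes with no unannotated row on their strand, the share was 46.2%. Ccnd1 and Cdkn1c thus fall in the class of pairs in which low counts on both rows are most frequent. The level of their mRNA cannot be read from these rows. How reads shared by overlapping rows were treated is not given in the sources used here, and its part in the low counts was not tested.

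Among the D-type cyclins, which start the G1 program, Ccnd3 and Ccnd2 were abundant. Ccnd3 (ENSRNOG00000050258, chr9:15404822-15410943 on the minus strand, Rnor_6.0) was at 348.1, 398.7 and 341.7 CPM in si-NC replicates 1 to 3 and at 304.7, 338.0 and 333.2 CPM in si-DYRK1A. All 3 si-DYRK1A libraries lay below the lowest si-NC library, by a margin of a few CPM for the closest pair, and si-NC replicate 2 stood above the rest. The mean level was 362.8 ± 31.2 CPM against 325.3 ± 18.01 CPM (SD, n = 3). The log2 fold change was -0.16 (SE 0.0585, 95% CI -0.28 to -0.03), which did not pass the test across all features (adjusted p = 0.0872 in edgeR). The exact permutation test of the CPM values gave p = 0.1, the smallest value that 3 libraries against 3 allow. Without any 1 library the log2 fold change was -0.21 to -0.09 with an adjusted p of 0.0535 to 0.290 in edgeR. Of the 18 alternatives 3 called Ccnd3 lower, among them normalization by library size alone (adjusted p = 0.0495) and fitting without a filter on low counts (adjusted p = 0.00582).

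Ccnd2 (ENSRNOG00000057710, chr4:159674885-159697207, minus strand) was at 222.8, 237.5 and 217.1 CPM in si-NC and at 220.1, 222.7 and 223.5 CPM in si-DYRK1A. The si-DYRK1A libraries lay inside the si-NC range. The log2 fold change was -0.02 (95% CI -0.12 to 0.07, adjusted p = 0.792 in edgeR), and its sign turned to 0.01 when si-NC replicate 2 was left out. Ccnd1, the D-type cyclin most closely tied to mitogen signals, held 0, 3 and 0 counts in si-NC and 2, 2 and 0 counts in si-DYRK1A on its unannotated row, too few for a comparison.

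Per length, the balance of the D-type cyclins could be set side by side with the FPKM values. In si-NC, Ccnd3 was at 188.7 ± 16.7 FPKM and Ccnd2 at 158.7 ± 7.78 FPKM (SD, n = 3), with Ccnd3 above Ccnd2 in each library. The ratio of Ccnd3 to Ccnd2 FPKM was 1.16, 1.24 and 1.16 in si-NC and 1.02, 1.12 and 1.10 in si-DYRK1A. Every si-DYRK1A ratio was below every si-NC ratio, with means of 1.19 ± 0.0474 and 1.08 ± 0.0520. Relative to the kinase they bind, Ccnd3 to Cdk4 was 0.830 ± 0.0636 in si-NC and 0.710 ± 0.0474 in si-DYRK1A, and Ccnd2 to Cdk4 was 0.699 ± 0.0281 and 0.655 ± 0.0127. These ratios were not tested further.

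The E-type cyclins, which activate Cdk2, had few counts on either of their rows. Ccne1 held 10, 9 and 7 counts in si-NC and 6, 14 and 2 counts in si-DYRK1A on its unannotated row, and the groups overlapped. Ccne2 held 4, 6 and 3 counts in si-NC and 3 counts in each si-DYRK1A library on its unannotated row. Neither row passed the filter on low counts with all libraries. These counts were too low to compare either gene between the groups, and the level of their mRNA cannot be read from these rows.

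Of the kinases, Cdk4, the partner of the D-type cyclins, had the highest level per length of the 6 member rows tested. Cdk4 (ENSRNOG00000025602, chr7:70349863-70352418, plus strand) was at 205.5, 211.0 and 209.0 CPM in si-NC and at 221.6, 216.6 and 218.0 CPM in si-DYRK1A. All 3 si-DYRK1A libraries were above all 3 si-NC libraries, and the replicates lay close together. The log2 fold change was 0.07 (SE 0.0435, 95% CI -0.02 to 0.16) and did not pass the test (adjusted p = 0.327 in edgeR, exact permutation p = 0.1). The last 168 bases of Cdk4 overlap Tspan31 on the opposite strand, and it is not given whether the counting used strand. Tspan31 was at 177.8 ± 3.85 CPM in si-NC and 174.7 ± 5.44 CPM in si-DYRK1A (log2 fold change -0.03, adjusted p = 0.775 in edgeR).

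Cdk2 (ENSRNOG00000006469, chr7:3124954-3132457, minus strand), the kinase of the G1 to S transition, was at 96.5, 92.3 and 91.0 CPM in si-NC and at 101.8, 95.2 and 105.0 CPM in si-DYRK1A. The groups overlapped through si-DYRK1A replicate 2 and si-NC replicate 1. The log2 fold change was 0.11 (SE 0.0542, 95% CI -0.0013 to 0.22, adjusted p = 0.189 in edgeR). The ratio of Cdk4 to Cdk2 FPKM was 5.38 ± 0.223 in si-NC and 5.23 ± 0.238 in si-DYRK1A (SD, n = 3), with overlapping ranges.

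Cdk6, the second partner of the D-type cyclins, was read from its unannotated row alone (chr4:27776537-27969684, minus strand). It was at 174.9, 192.8 and 173.9 CPM in si-NC and at 170.5, 168.4 and 162.4 CPM in si-DYRK1A. The si-DYRK1A libraries were all below the si-NC libraries, which again included a higher replicate 2. The log2 fold change was -0.11 (SE 0.0499, 95% CI -0.22 to -0.01), and it did not pass the test (adjusted p = 0.148 in edgeR, exact permutation p = 0.1). No alternative called it.

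Cdkn1b encodes p27, an inhibitor that holds cyclin and Cdk2 complexes inactive in quiescent cells. Its unannotated row (chr4:168688928-168693964, plus strand) held 156, 171 and 184 counts in si-NC and 213, 196 and 224 counts in si-DYRK1A. This was 14.96, 14.46 and 15.39 CPM in si-NC and 18.73, 18.46 and 19.39 CPM in si-DYRK1A. The groups did not overlap, as for 31.5% of all tested features, and the gap between them was wider than the range within either one. The mean was 26.3% higher in si-DYRK1A (14.9 ± 0.463 against 18.9 ± 0.477 CPM, SD, n = 3). The log2 fold change was 0.34 (SE 0.103, 95% CI 0.12 to 0.55, adjusted p = 0.0289 in edgeR), and the exact permutation p was 0.1. It was the member row with the smallest p and ranked 1935 of the 15513 features. With 1 of the 6 rows called, the count is read beside the 15.2% of all features that were called. The annotated Cdkn1b row lies within the unannotated one and held 0 counts. How bases shared by both rows were counted is not given, so the difference holds for the counts of the unannotated row.

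The call on Cdkn1b was close to the threshold. Leaving out any 1 of the 6 libraries kept the log2 fold change at 0.31 to 0.35 and moved the adjusted p in edgeR to 0.0530 to 0.113, so that the call was lost each time. DESeq2 gave an adjusted p of 0.135. Over the 17 alternatives that measured the row it was called in 8, with an adjusted p of 0.0273 to 0.135, and the direction was higher in si-DYRK1A in all 17. Cdkn1c, which encodes p57, had 0 counts on both of its rows in every library, which allows up to 3 counts, or 0.252 to 0.291 CPM, for counting error only.

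**Figure D2:**
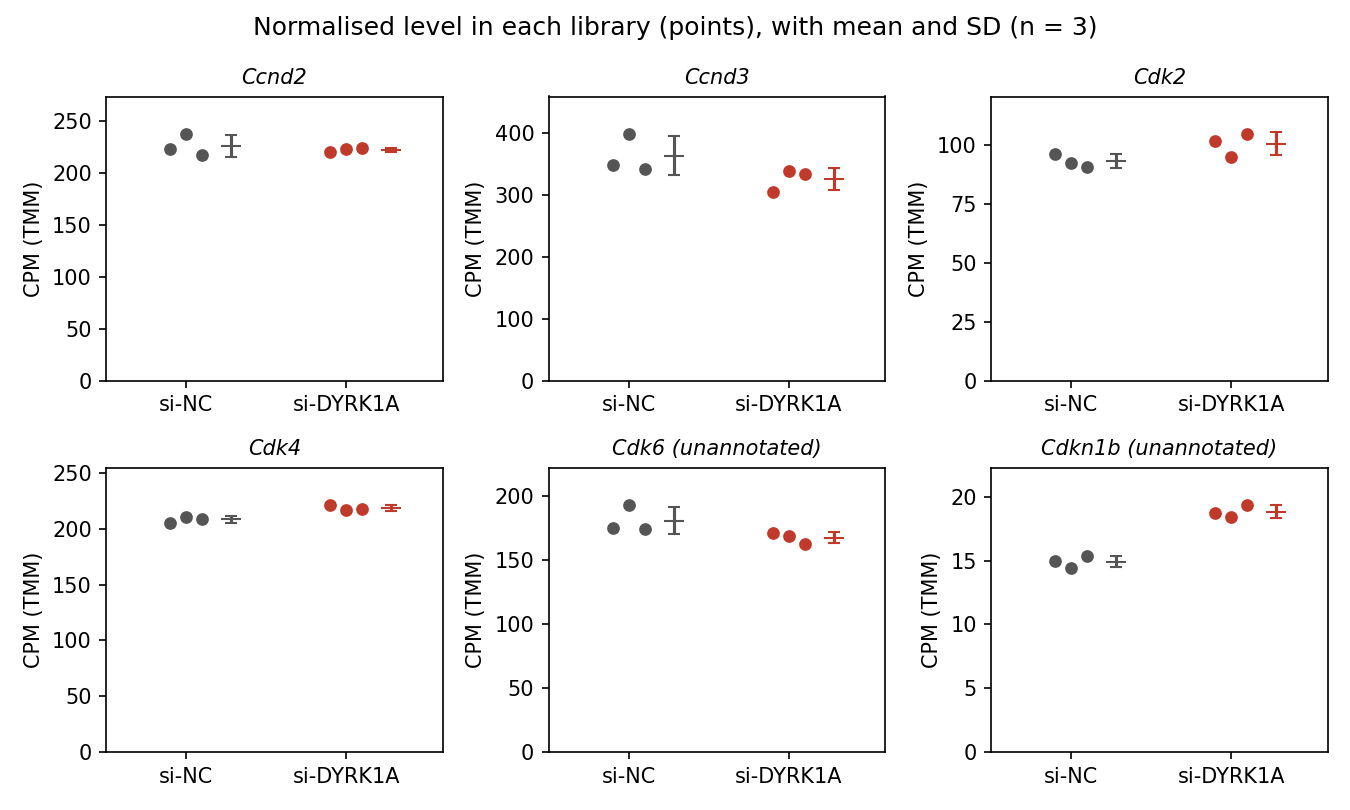
CPM after TMM scaling (y axis from 0) in each library of si-NC (grey) and si-DYRK1A (red) for the 6 rows tested, with points for libraries, ordered by replicate number, and bars for the mean and SD (n = 3). The Cdkn1b unannotated row is at 14.5 to 15.4 CPM in si-NC and 18.5 to 19.4 CPM in si-DYRK1A, whereas the Ccnd2 and Cdk2 groups overlap.

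**Figure D3:**
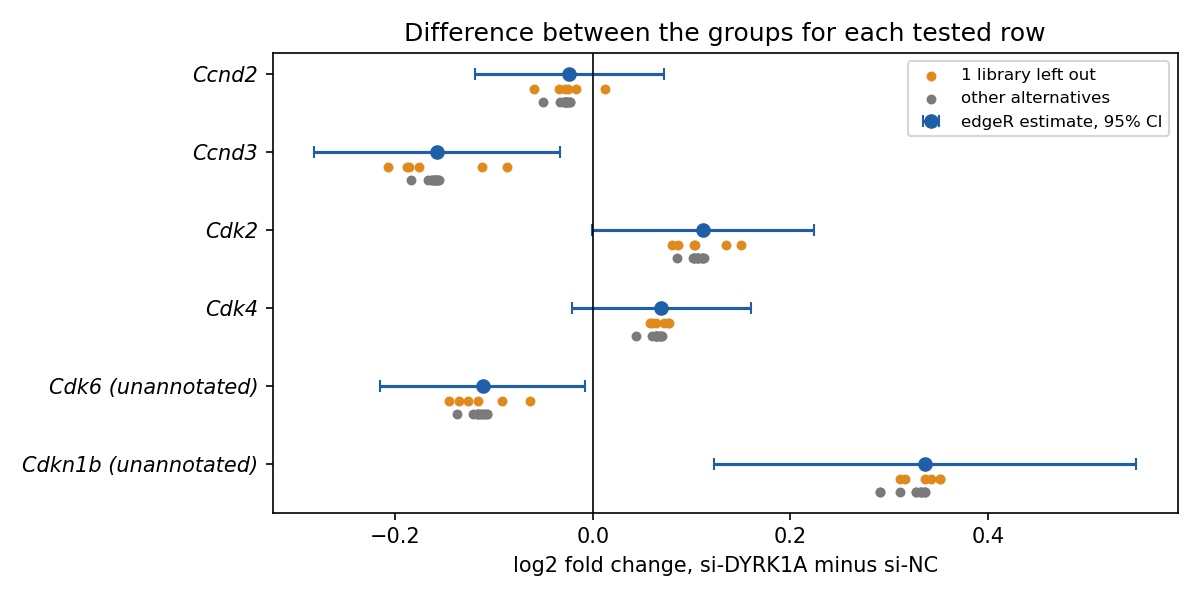
Log2 fold change of si-DYRK1A minus si-NC (x axis) for each row tested, with the edgeR estimate and its 95% CI in blue, the estimates with 1 library left out in orange and those of the other alternatives in grey. All estimates for Cdkn1b lie between 0.29 and 0.35, and those for Ccnd2 lie on both sides of 0.

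Ordered by FPKM, the level per length, the si-NC libraries gave Cdk4 (227.2 ± 3.76), Ccnd3 (188.7 ± 16.7), Ccnd2 (158.7 ± 7.78), Cdk2 (42.3 ± 1.19), the Cdk6 unannotated row (13.9 ± 0.857) and the Cdkn1b unannotated row (6.38 ± 0.189; SD, n = 3). Neighbours in this order did not overlap between their si-NC libraries. In si-DYRK1A the FPKM values were 237.6 ± 2.72 for Cdk4, 168.6 ± 9.40 for Ccnd3, 155.6 ± 1.29 for Ccnd2, 45.5 ± 2.21 for Cdk2, 12.8 ± 0.328 for the Cdk6 unannotated row and 8.03 ± 0.197 for the Cdkn1b unannotated row. The order was the same in both groups, and the closest neighbours were Ccnd3, at 157.9 to 175.4 FPKM, and Ccnd2, at 154.1 to 156.5 FPKM, in si-DYRK1A. The FPKM of an unannotated row divides by its whole listed length, 12894 bases for Cdk6 and 2326 bases for Cdkn1b. These lengths exceed those of the annotated rows by 11398 and 571 bases. How bases shared with the annotated row were counted is not given, so the order of Cdk6 and Cdkn1b holds only for the listed lengths.

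The promoters of the members that stood out are shown from RefSeq (GRCr8, another build than that of the counts), as the 250 bases before the listed start. A promoter was listed for 5 of the 10 genes. Cdkn1b is shown as the gene called, Ccnd3 as the largest difference in the other direction and Cdk4 as the tested member with the highest level per length. Capitals mark matches on either strand to the E-box CACGTG, the CCAAT box CCAAT or the GC box GGGCGG.
Cdkn1b, chr4:169491254-169491503, plus strand: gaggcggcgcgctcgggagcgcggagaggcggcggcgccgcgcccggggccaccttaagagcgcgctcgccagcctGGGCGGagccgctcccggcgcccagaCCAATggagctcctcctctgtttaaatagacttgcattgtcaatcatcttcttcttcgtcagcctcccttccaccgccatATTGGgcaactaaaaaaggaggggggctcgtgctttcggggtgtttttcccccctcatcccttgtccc
Ccnd3, chr9:20897876-20898125, minus strand: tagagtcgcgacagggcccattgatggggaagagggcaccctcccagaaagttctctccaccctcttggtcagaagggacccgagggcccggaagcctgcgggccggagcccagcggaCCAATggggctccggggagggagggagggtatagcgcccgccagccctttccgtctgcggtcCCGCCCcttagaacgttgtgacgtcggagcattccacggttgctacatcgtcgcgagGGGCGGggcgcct
Cdk4, chr7:64771203-64771452, plus strand: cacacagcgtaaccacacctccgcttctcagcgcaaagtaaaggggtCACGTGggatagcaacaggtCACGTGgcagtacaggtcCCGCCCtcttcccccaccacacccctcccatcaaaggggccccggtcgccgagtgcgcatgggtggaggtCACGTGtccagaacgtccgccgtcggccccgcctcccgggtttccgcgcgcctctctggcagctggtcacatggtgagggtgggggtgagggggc

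The 3 windows differ in the motifs they hold. Cdk4 holds 3 E-boxes, the motif bound by Myc family factors, and Cdkn1b and Ccnd3 hold 0, where 5.6% of all 33469 RefSeq rat promoters have at least 1 in the same window. Cdkn1b has 2 CCAAT boxes and Ccnd3 has 1 (34.0% of all promoters hold at least 1). Each window has a GC box, 1 in Cdkn1b and Cdk4 and 2 in Ccnd3 (30.5% of all promoters). Matches to the E2F motif, searched as TTTCCCGC, TTTGGCGC, TTTCGCGC or TTTGCCGC on either strand, were absent from all 5 promoters and present in 1.7% of all promoters. The GC content was 64.0% for Cdkn1b, 67.2% for Ccnd3 and 66.8% for Cdk4, and the median over all promoters was 51.2%. A match is a description of letters in the window, and absence of a match says nothing about the factor.

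Other genes of the pathway were taken from lists by role. Calls in each list are read beside the 8.03% of all tested features called higher and the 7.19% called lower. Among the cyclins of S and M phase and their kinase Cdk1, 3 of 4 tested genes rose and 0 fell (0 lower also at an unadjusted p under 0.05, in DESeq2 and in limma-voom), with a median log2 fold change of 0.28 over the tested genes against 0.002 over all features. Ccnb1, the mitotic cyclin B1, was at 108.9 ± 4.61 CPM in si-NC and 139.7 ± 6.88 in si-DYRK1A (log2 fold change 0.36, adjusted p = 5.19e-05 in edgeR). Ccna2, the cyclin A of S and G2 phase, had a log2 fold change of 0.26 (adjusted p = 5.59e-04 in edgeR), and Cdk1 had one of 0.26 (adjusted p = 0.00118 in edgeR). None of these 3 genes overlapped between the groups. The annotated rows of Ccnb3 and Ccnf stayed under 10 counts in every library. Of the G1 genes, 0 of the 4 annotated rows were called (1 lower and 0 higher at an unadjusted p under 0.05, 0 in DESeq2 and in limma-voom). The unannotated row over Cdkn1b was called higher, and 15.2% of all tested features were called in either direction. A difference between these sets of genes was not tested.

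**Figure D4:**
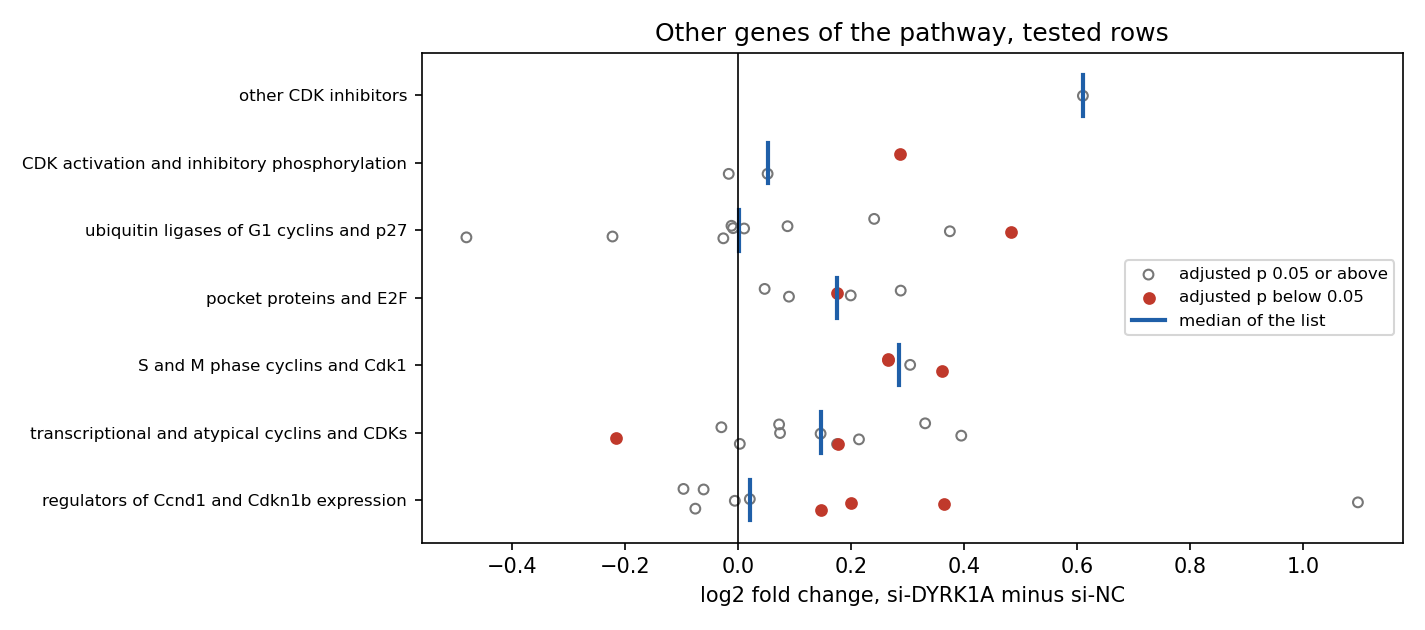
Log2 fold change of si-DYRK1A minus si-NC (x axis) for every tested gene of the other lists (y axis), with filled points for an adjusted p below 0.05, open points for the rest and a blue line at the median of each list. Of the 4 tested genes of the S and M phase list, 3 are filled and all 4 lie to the right of 0.

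Of the genes that set Cdk activity by phosphorylation, 3 were tested and 1 was called, Wee1, the kinase that places the inhibitory phosphate on Cdk1 and Cdk2. Wee1 was at 70.9 ± 3.90 CPM in si-NC and 86.5 ± 5.23 CPM in si-DYRK1A (log2 fold change 0.29, adjusted p = 0.00279 in edgeR). The annotated rows of Cdc25a, Cdc25b, Cdc25c, Mnat1 and Pkmyt1 stayed under 10 counts in every library, and each gene has an unannotated row on its strand. With that row added, only Pkmyt1 could be tested (log2 fold change -0.23, adjusted p = 0.806 in edgeR).

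Of the genes listed with the ubiquitin ligases of G1 cyclins and p27, 10 were tested. Of these, 1 was called higher and 0 lower (0 lower also at an unadjusted p under 0.05, in DESeq2 and in limma-voom), with a median log2 fold change of 0.00055. The gene called was Cks2, a small Cdk-binding protein, at 59.9 ± 4.05 CPM in si-NC and 83.8 ± 4.59 CPM in si-DYRK1A (log2 fold change 0.48, adjusted p = 1.99e-05 in edgeR). Skp2, the receptor that delivers p27 for degradation, was at 26.3 CPM in si-NC and 31.1 CPM in si-DYRK1A (log2 fold change 0.24, adjusted p = 0.102 in edgeR). Cks1b, at 9 to 24 counts per library on its annotated row, went the other way (log2 fold change -0.48, adjusted p = 0.491 in edgeR). With its unannotated row added the log2 fold change was -0.28 (adjusted p = 0.388 in edgeR). Of Cul4b, Dtl and Cul3, which stayed under 10 counts on their annotated rows, Dtl was called once unannotated rows were added to it (log2 fold change 0.72, adjusted p = 0.00178 in edgeR).

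Among the retinoblastoma family and E2F genes, which act downstream of the G1 kinases, 5 of 13 were tested and 1 was called. This was Tfdp1, the dimer partner of E2F, at 174.6 ± 6.26 CPM in si-NC and 197.0 ± 4.89 CPM in si-DYRK1A (log2 fold change 0.17, adjusted p = 0.0130 in edgeR). E2f1 (log2 fold change 0.09, adjusted p = 0.349 in edgeR) and Rb1 (0.05, adjusted p = 0.734) did not pass. The other 8 genes, E2f4, E2f5, E2f6, E2f7, E2f8, Tfdp2, Rbl1 and Rbl2, stayed under 10 counts in every library on their annotated rows, and each lies under an unannotated row. With these rows added, 10 genes of the list were tested and Tfdp1 was again the only one called, while E2f7 had a log2 fold change of 0.40 (adjusted p = 0.0621 in edgeR).

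Of the other CDK inhibitors, only Cdkn2a, which encodes p16 and p19, had a testable annotated row, at 3.30 CPM in si-NC and 5.03 CPM in si-DYRK1A (log2 fold change 0.61, adjusted p = 0.190 in edgeR). Cdkn1a, the third Cip/Kip member, and Cdkn2b, Cdkn2c and Cdkn3 stayed under 10 counts in every library on their annotated rows. With unannotated rows added, Cdkn2c could be tested as well (log2 fold change 0.05, adjusted p = 0.947 in edgeR). Of the Cip/Kip genes, only Cdkn1b could thus be compared, and only through its unannotated row.

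Among regulators of Ccnd1 and Cdkn1b expression, 3 of 9 tested genes rose and 0 fell (0 lower also at an unadjusted p under 0.05, in DESeq2 and in limma-voom). DESeq2 called 2 higher and limma-voom 3. Mycn, a Myc family factor, was at 32.8 ± 0.581 CPM in si-NC and 42.3 ± 2.84 CPM in si-DYRK1A (log2 fold change 0.36, adjusted p = 0.00244 in edgeR). The antiproliferative genes Btg1 and Btg2 had log2 fold changes of 0.20 (adjusted p = 0.00511 in edgeR) and 0.15 (adjusted p = 0.0264). The annotated rows of Akt1, Akt2 and Tob1 stayed under 10 counts, and Akt2 was lower once unannotated rows were added (log2 fold change -0.20, adjusted p = 0.0140 in edgeR). Of 11 tested transcriptional and atypical cyclins and kinases, Ccng1, a p53 target, rose (log2 fold change 0.18, adjusted p = 0.00324 in edgeR) and Ccny, a membrane-bound cyclin, fell (-0.22, adjusted p = 0.00497). In that list the annotated rows of Ccnc, Ccni, Ccnk, Ccnt1, Ccnt2, Cdk5, Cdk16, Cdk18 and Cdk19 stayed under 10 counts. With unannotated rows added, 16 genes of the list were tested, among them Ccnc (log2 fold change -0.25), Ccnt2 (0.08), Cdk16 (0.02) and Cdk18 (0.51), and the calls were again 1 higher and 1 lower.

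The genes whose CPM over the 6 libraries most resembled that of the Cdkn1b unannotated row were Ptn (Pearson r = 0.998), Nipal4 (r = 0.997) and Kif22 (r = 0.997) among 8177 annotated genes compared. As 607 of these genes had r above 0.9 over only 6 libraries in 2 groups, this is a description of shared group difference.

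Markers of the cell types a heart culture can hold also moved between the groups. Of 9 cardiomyocyte markers, 3 were tested and 2 rose, Nppa (log2 fold change 0.37) and Actn2 (0.31), while Tnnt2 had a log2 fold change of -0.14 (adjusted p = 0.595 in edgeR). The summed annotated rows of the markers were at 8500 to 9348 CPM in si-NC and 10950 to 11810 CPM in si-DYRK1A. Most of this sum was Nppa alone, at a mean of 7557 CPM in si-NC and 9782 CPM in si-DYRK1A. The defining markers Myh6, Myh7, Tnni3 and Myl2 were at 0 counts on annotated rows, and each lies under an unannotated row. With that row added, Myl2 had a log2 fold change of -0.05 (adjusted p = 0.907 in edgeR). Of 7 tested endothelial markers, Tek (-0.75), Tie1 (-0.43) and Cdh5 (-0.31) fell, and the summed level was 171 to 189.9 CPM in si-NC and 139.1 to 144.5 CPM in si-DYRK1A. The log2 fold changes of the rest, not called, were -0.54 for Egfl7, -0.53 for Vwf, -0.01 for Kdr and 0.03 for Emcn.

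Of 7 tested fibroblast markers, Lum, Postn and Vim rose, with a summed level of 25060 to 29880 CPM in si-NC and 24410 to 25370 in si-DYRK1A. Col1a1, the most abundant of them, was at 14341 CPM in si-NC and 11113 CPM in si-DYRK1A (log2 fold change -0.37, adjusted p = 0.0869 in edgeR), and DESeq2 called 1 fibroblast marker lower. Of 6 tested macrophage markers, Lyz2 rose, with 220.9 to 227.2 CPM in si-NC and 226.3 to 255.4 in si-DYRK1A, and 2 were lower at an unadjusted p under 0.05, Adgre1 (log2 fold change -0.54, adjusted p = 0.168 in edgeR) and Ptprc (-0.21, adjusted p = 0.124). Of 2 tested smooth muscle markers 0 were called (1 lower at an unadjusted p under 0.05, 0 in DESeq2 and in limma-voom), with 555.6 to 562.7 CPM against 544.8 to 568.6, while Myh11, Acta2 and Smtn were at 0 counts on annotated rows. The part of cell composition in the Cdkn1b difference was not tested.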

How the data were processed

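Groups and replicate numbers came from the sample labels, which call the replicates biological. The authors deposited raw counts per gene and FPKM values (counts per gene length, scaled per library). Paired-end reads were mapped to Rnor_6.0 with HISAT2 per the methods of the study, while the submitters' processing notes name Bowtie 0.12.2 and mm8. For the counting tool and strandedness no information is given in the sources used here. All per-sample columns were matched to samples.

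Counts of the 6 libraries were tested in edgeR 4.0.16 (R 4.3.3) with TMM scaling, the filterByExpr filter (minimum count 10 in at least 3 libraries, scaled to depth, total at least 15) and a robust quasi-likelihood fit. Two-sided p-values were adjusted by Benjamini-Hochberg over all 15513 features, with a threshold of 0.05. DESeq2 1.42.0 and limma 3.58.1 were alternatives. FPKM served for levels per length and, as log2(FPKM + 1) or log2(FPKM + 0.1), for limma. Unannotated rows were matched with GenomicRanges 1.54.1, same strand, at least 50% cover where counts were summed. Scripts were tested on simulated data. The members and lists were chosen with earlier results of these data known. Named genes were all members, called genes of each list (at most 6), genes under 10 counts everywhere, by name, and the 3 genes most correlated with the member row of smallest p. Skp2, Cks1b, E2f1, Rb1, Cdkn2a, Dtl, Akt2, Tnnt2, Myl2, Egfl7, Vwf, Kdr, Emcn, Col1a1, Adgre1, Ptprc and the values of genes with summed rows were named after their values were seen. Some single genes of the lists are left out of the text.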

Additional observations from a re-analysis of the deposited data

How the results depend on the processing

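Of the tested member rows, 1 was called, and the count depended on the processing. It was 2 (1 lower, Ccnd3) with library size only, 1 (0 higher, 1 lower) without a filter on low counts, and 0 with DESeq2, limma on log2(FPKM + 1) without a filter, annotated rows only, or an adjusted p below 0.01. With any 1 library left out the count was 0 to 0. The sign of Ccnd2 turned only without si-NC replicate 2 (0.0118; range with 1 library left out -0.0594 to 0.0118), and no other member row changed sign. Where it is not clear from the construction, the cause was not tested. Replicate numbers are shared between the groups. Deviations of same-numbered libraries correlated at 0.0631, -0.024 and -0.00698. These values show no pairing by number, but with 3 libraries per group they cannot exclude one. The replicate block gave 2 member calls (1 lower, Ccnd3, adjusted p = 0.0437 in edgeR) and 2269 calls over all features.

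Over all features the 2360 calls became 1199 (662 higher, 537 lower) with limma on log2(FPKM + 1), 1180 (655 and 525) with log2(FPKM + 0.1), 591 (344 and 247) without a filter on the former, and 1307 (723 and 584) at an adjusted p below 0.01. DESeq2 called 823 higher. With 1 library left out the total was 1614 to 2210. Levels per length computed as TPM use the same counts and listed lengths, so they keep the order of the 6 rows by construction. Ccnd1, Ccne1, Ccne2 and Cdkn1c, with at most 48 counts on any row, could not be compared, and the part of depth in these low counts was not tested.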
